A study of Hevea brasiliensis with 6 samples.

Results

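The 150 unigenes described here were chosen by their measured response to cold in rubber tree (Hevea brasiliensis) leaves. They had the highest values after 24 h of cold, relative to control leaves, in the clone 93-114, while the same sequences stayed within 0.5 on the log2 scale in the clone Reken501. They were taken from 167072 unigenes, the assembled transcript sequences on which the RNA-seq fragments had been counted. The 6 libraries came from leaves of 1-year-old plants of the clones Reken501 and 93-114, sampled without cold (control) or after cold at 4 °C for 1 h or 24 h. A pool of 3 plants gave each library, with 1 library per clone and time. The spread between pools is therefore unknown, differences between conditions and between pools cannot be told apart, no test was made, and every interval given below covers counting error only. No transgene or drug was involved. The contrast between the clones is that of the whole genotype. The unigene identifiers pair with no gene names, and none of the 50196 RefSeq genes of the species carries a matching identifier. The members are therefore described by rank, length, cluster and counts, the leaf label was not checked against leaf marker genes, and the part that any other cell type had in these values was not tested.

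Rubber tree is a tropical tree grown for the latex made in its laticifer cells, and chilling injures its leaves. In plants in general, chilling stiffens membranes, slows enzymes and lets calcium into the cell, and within hours a first group of transcription factors, among them the CBF/DREB family, is induced. These switch on later genes for protective proteins, sugars and membrane lipids, so that many transcripts appear only after the first hours of cold. Clones of a crop can differ both in which transcripts cold raises and in how much of each the unstressed leaf already holds. In an assembly without a genome, a transcript can be broken into several sequences, and similar sequences (splice forms, alleles, gene copies) are grouped as contigs of a cluster. A sequence that joined no cluster stands alone. Fragments that match several contigs may have been divided between them in counting.

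The libraries held between 20.4 M and 21.9 M fragments on unigenes. One difference between them bears on all values below. In 93-114 the median share of a unigene was lower in both cold libraries than in the control, by 0.71 on the log2 scale at 1 h (-0.71) and 0.65 at 24 h (-0.65), whereas in Reken501 it moved by -0.10 and -0.07. Each library was centred on its own median, so a centred difference tells how a unigene moved relative to the typical unigene of that library. All log2 differences below are centred unless stated otherwise, and "2-fold" means a centred difference of 1.

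A unigene was screened if it had a mean of 30 or more fragments over the 6 libraries and at least 5 in both controls, lay between -1 and 1 at 1 h in both clones, and lay between -0.5 and 0.5 at 24 h in Reken501. The abundance minimum was passed by 46974 unigenes, the 1 h limits by 34281 of these, and all limits by 21005. The 150 with the highest 24 h value in 93-114 are the members, and all 150 pass the abundance minimum by construction. Their 24 h values ran from 1.29 to 2.58 with a median of 1.44, that is 2.45-fold, 5.97-fold and 2.72-fold. These values selected the members and are a description only. Among the screened unigenes, 2.58% (541) were 2-fold or more higher at 24 h in 93-114, and 11.1% (5195) of all unigenes that passed the abundance minimum were. Only 5 members were past 4-fold, and no other screened unigene was.

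The limit lies in a dense range of values. The member of rank 150 had 255, 392 and 212 fragments in Reken501 (control, 1 h and 24 h, the order used throughout) and 161, 173 and 272 in 93-114, a value of 1.29. The unigene of rank 151, just outside, had 220, 213 and 260 in Reken501 and 201, 196 and 339 in 93-114, also 1.29. With that one, 96 screened unigenes lay less than 0.1 under the lowest member, and 54 members lay within 0.1 above it.

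**Figure D1:**
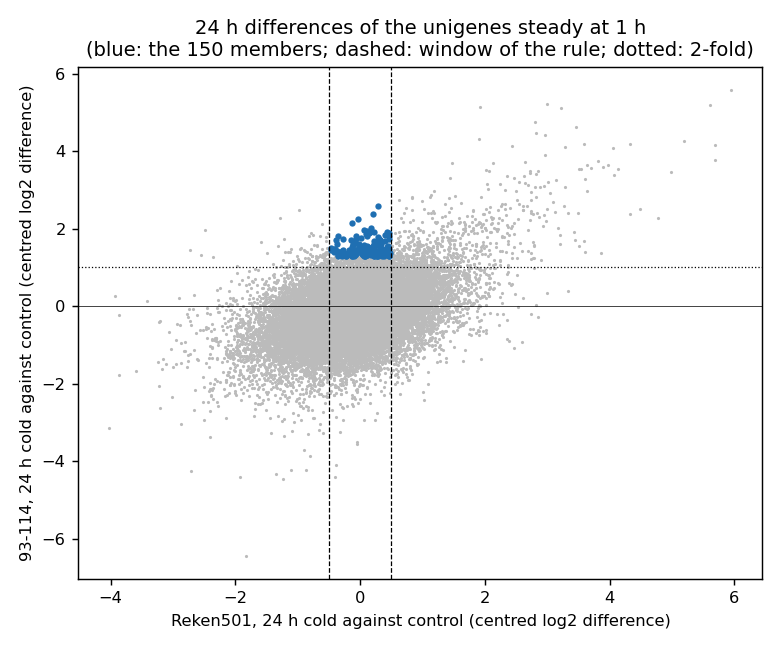
Centred log2 difference of 24 h cold against control in Reken501 (x axis) and 93-114 (y axis) for the 34281 unigenes that passed the abundance and 1 h limits. Each point is a unigene, blue points are the 150 members, dashed lines mark the limits of -0.5 and 0.5 in Reken501 and the dotted line marks 2-fold in 93-114; the members fill the top of the central band, from 1.29 to 2.58, and the highest values in 93-114 lie to the right of it.

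Unigene31573_All (rank 1, 509 bases, standing alone) had 53, 32 and 63 fragments in Reken501 and 31, 30 and 129 in 93-114. The 24 h library of 93-114 was above each of the other 5, which ran from 30 to 63. Its 24 h value was 2.58 in 93-114 (95% interval 2.02 to 3.21) and 0.29 in Reken501 (-0.26 to 0.85). Relative to Reken501 it was lower in control leaves of 93-114, at -0.88 (-1.58 to -0.22), and higher after 24 h, at 1.41 (0.97 to 1.87).

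Unigene42123_All (rank 2, 924 bases, standing alone) had 75, 50 and 84 fragments in Reken501 and 19, 15 and 69 in 93-114. Here 93-114 reached the range of Reken501 only after 24 h. The 24 h value in 93-114 was 2.37 (1.65 to 3.22), the ratio of 93-114 to Reken501 was -2.07 in control leaves (-2.91 to -1.36), and at 24 h it was 0.10 (-0.38 to 0.57). Rank 1 and rank 2 thus had nearly the same response in 93-114 and different end points relative to Reken501, a contrast that recurred through the set.

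The member of rank 3 (1532 bases, standing alone) was better counted, with 488, 411 and 465 fragments in Reken501 and 302, 166 and 989 in 93-114. Its value in 93-114 was -0.21 at 1 h and 2.25 at 24 h (2.06 to 2.44), against -0.03 in Reken501 at 24 h (-0.21 to 0.16). The 10 highest members all lay at 1.90 or above and were between 291 and 3884 bases long. In 4 of these 10 the control of 93-114 was 2-fold or more lower than that of Reken501, as in 13.4% of the screened unigenes. A low control in 93-114 favours a high rank by construction. In 5 of the 10 Reken501 itself was at -0.5 or lower at 1 h, as in 8.44% of the screened unigenes. Its 24 h value then returned to within 0.5 of control, as the rule requires.

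**Figure D2:**
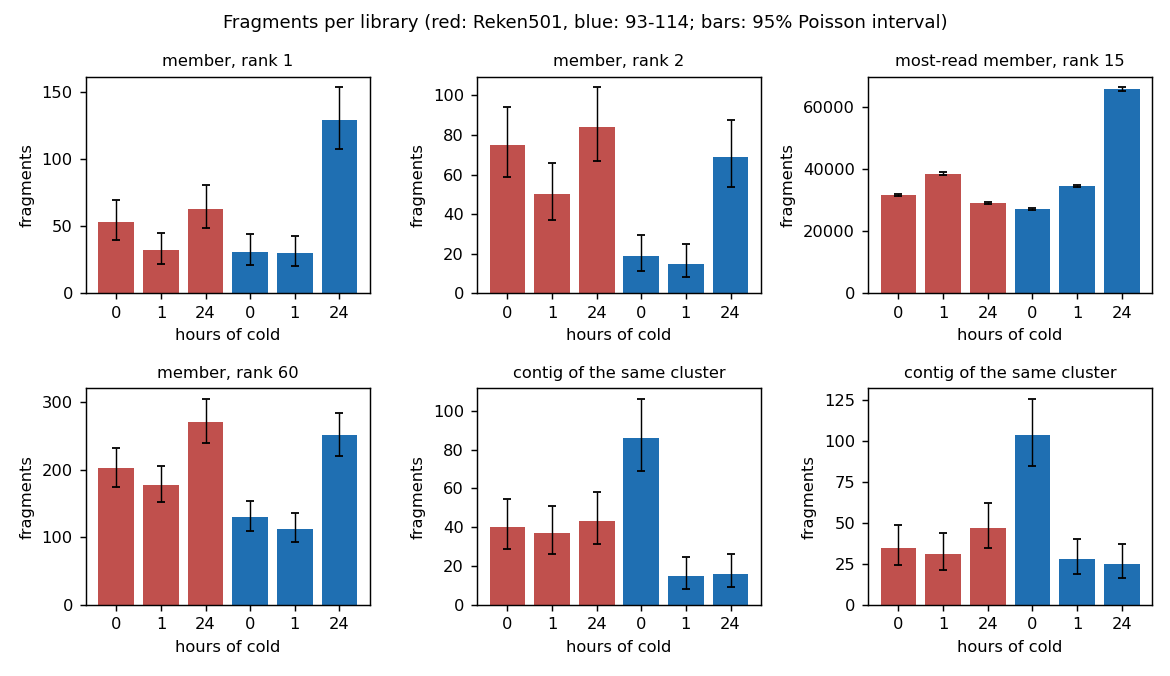
Fragments (y axis, linear from 0, a scale of its own in each panel) in the 6 libraries by hours of cold (x axis) for the members of rank 1, 2, 15 and 60 and for the 2 contigs CL1583.Contig4_All and CL1583.Contig11_All of the cluster of rank 60. Red bars are Reken501, blue bars 93-114, and error bars are 95% Poisson intervals for counting error; the 24 h bar of 93-114 is the highest bar for rank 1 and rank 15, while for the 2 contigs the control bar of 93-114 is the highest.

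Counting error alone left most single values imprecise. The lower 95% bound of the 24 h difference in 93-114 was above 0 in 148 of the 150 members and reached 2-fold in 63. In Reken501 the upper bound of the 24 h difference was under 2-fold in 132. The difference between the 24 h responses of the clones ran from 0.83 to 2.29 with a median of 1.41. Its lower 95% bound was above 0 in 144 of the 150 and reached 1 in 31. These figures use the same libraries as the choice of the members, so they describe the counting precision and nothing more. Among the 40 members with a mean of 100 or more fragments, the lower bound of the difference in 93-114 reached 2-fold in 35, and the upper bound in Reken501 was under 2-fold in all 40.

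The deposited FPKM values, which are scaled to the total fragments and to length but not centred, give the same members in another light. The median FPKM of the members was 4.52, 3.84 and 4.15 in Reken501 and 2.39, 1.96 and 4.33 in 93-114. So at 24 h the median in 93-114 had come up to about that of Reken501, from a lower level in control leaves. Over the screened unigenes the median FPKM was 4.69, 4.62 and 4.35 in Reken501 and 4.85, 2.95 and 2.84 in 93-114. The members were thus higher in a library in which the typical screened unigene was lower. FPKM was higher at 24 h than in the control of 93-114 in all 150 members and in 9.66% of the screened unigenes. The choice of the members fixed this outcome, since their lowest centred value of 1.29 exceeds the fall of 0.65 in that library's median. Scaled in this way, to totals only, the 24 h difference of the members in 93-114 ran from 0.65 to 1.93 on the log2 scale with a median of 0.80, and 32 of the 150 were past 2-fold.

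**Figure D3:**
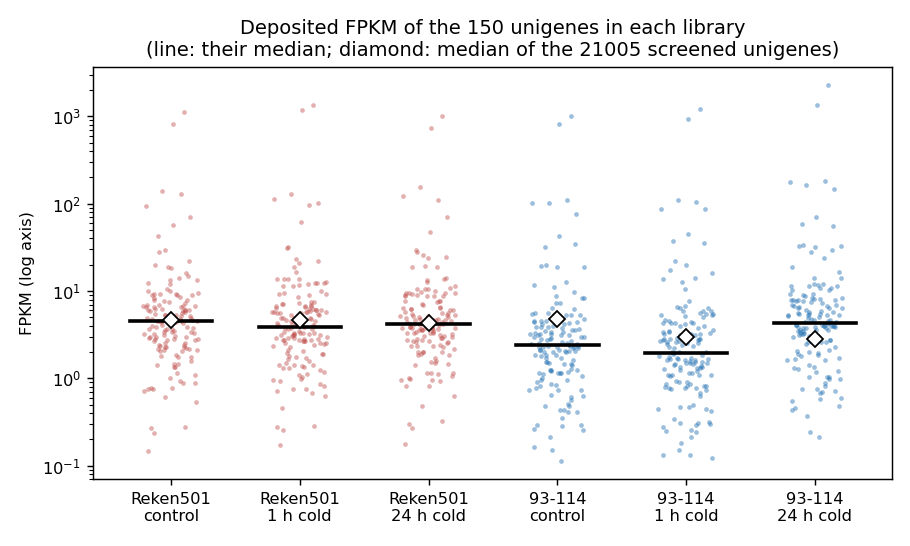
Deposited FPKM (y axis, log scale) of the 150 members in each of the 6 libraries (x axis). Each point is a unigene, the black line is the median of the members and the diamond is the median of the 21005 screened unigenes; in 93-114 the line lies under the diamond in the control (2.39 against 4.85) and over it at 24 h (4.33 against 2.84).

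A few abundant transcripts carried much of the sum. The members together took 0.317%, 0.360% and 0.316% of all fragments in Reken501 and 0.278%, 0.298% and 0.552% in 93-114. The most-read of them, of rank 15 (1319 bases, standing alone), had 31520, 38456 and 29131 fragments in Reken501 and 27209, 34488 and 65635 in 93-114. Without it they took 0.169%, 0.181% and 0.181% in Reken501, and 0.145%, 0.136% and 0.253% in 93-114. With or without it, the 24 h library of 93-114 held the highest share of the 6. The members were chosen for high values in that library relative to the control of 93-114, so a higher share than in that control follows from the rule.

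In FPKM, which allows levels of different unigenes to be compared, rank 15 stood at 1126, 1361 and 1022 in Reken501 and at 1013, 1231 and 2270 in 93-114. Its centred value in 93-114 was 0.99 at 1 h, close to the limit of 1, and 1.81 at 24 h (1.79 to 1.83). The member next to it in FPKM was of rank 102 (223 bases, standing alone), at 811, 1174 and 739 in Reken501 and 817, 945 and 1360 in 93-114. Both were higher at 1 h than in the control in both clones and then parted, the level going down by 24 h in Reken501 and up in 93-114. A long abundant contig, of rank 75 (5534 bases), had 10980, 13423 and 14529 fragments in Reken501 and 11507, 10157 and 21557 in 93-114. Its 24 h value in Reken501, 0.45 (0.41 to 0.48), was just inside the limit of 0.5, so that it was higher in both clones, by 1.44 (1.41 to 1.48) in 93-114.

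At 1 h the rule admitted any value between -1 and 1, and within that range the members of 93-114 were not evenly spread. Their median at 1 h was 0.65, against 0.03 over the screened unigenes. A value of 0.5 to 1 was found in 93 members (18.1% of the screened unigenes had one), 54 lay within 0.5 of the control, and 3 were at -0.5 or lower. A value of 0.9 to 1, next to the limit, was found in 24. The 1 h difference shares its control library with the 24 h difference that chose the members, so a low control count raises both. The median member had 42.8% of its 24 h difference at 1 h. In FPKM, without centring, only 61 of the 150 (40.7%) were higher at 1 h than in the control of 93-114, against 8.26% of the screened unigenes.

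From 1 h to 24 h all 150 members were higher in 93-114, by a median of 0.87 (lowest 0.31, highest 2.46), and 61 were 2-fold or more higher, against 1.48% of the screened unigenes. The 24 h library was also used in the choice. With a limit of 1 at 1 h and 24 h values of 1.29 or more, every member had to be higher. The contrast with the background is thus in part set by the rule. The members that were within 0.5 of the control at 1 h had a median 24 h value of 1.48, of which 1.39 came after 1 h. Those with 0.5 to 1 at 1 h had a median 24 h value of 1.42, with 0.66 after 1 h. The late members were also lower in control leaves of 93-114 relative to Reken501, with a median ratio of -1.03 against -0.62 for the early ones.

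At 1 h 15 members were below 0 in 93-114, and the 3 of them at -0.5 or lower are of rank 44, 71 and 122. Rank 71 (4142 bases, a contig of a cluster of 2) had 798, 512 and 892 fragments in Reken501 and 287, 101 and 540 in 93-114. It dipped at 1 h in both clones, by -0.56 in Reken501 and by -0.85 (-1.20 to -0.52) in 93-114, and ended at 0.20 in Reken501 and 1.45 in 93-114. Rank 122 (382 bases, standing alone) had 42, 44 and 46 fragments in Reken501 and 19, 6 and 33 in 93-114. With 6 fragments, its 1 h value of -0.93 has an interval of -2.62 to 0.37.

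In Reken501 the members had a median of 0.09 at 1 h and 0.11 at 24 h, with 24 h values from -0.47 to 0.47 and 94 of 150 above 0. At 1 h, 28 members were at 0.5 or higher, 28 at -0.5 or lower and 94 between. Of the screened unigenes, 11.6% were at 0.5 or higher and 8.44% at -0.5 or lower. From 1 h to 24 h, 7 members were 2-fold or more higher in Reken501 (background 0.681%) and 2 were 2-fold or more lower (background 0.947%). One of these 2 was rank 81 (1772 bases), with 224, 355 and 169 fragments in Reken501 and 139, 177 and 259 in 93-114, which was up at 1 h in both clones and remained up in 93-114 alone. The opposite course was seen in rank 11 (862 bases), with 98, 54 and 131 fragments in Reken501 and 22, 23 and 57 in 93-114, where Reken501 dipped at 1 h and then returned.

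Before cold, the members were on the whole less abundant in 93-114 than in Reken501. The ratio of 93-114 to Reken501 in control leaves had a median of -0.79 over the members and -0.18 over the screened unigenes, and it was below 0 in 121 of 150. It was 2-fold or more lower in 61 members, against a background of 13.4%, and 2-fold or more higher in 4, against 8.89%. The control of 93-114 is part of the difference that chose the members, so a low control value favours selection by construction. Of the 61, 52 had a mean of 30 to 100 fragments, 47.3% of the members in that class against 13.8% of its screened unigenes. The count was 9 of 40 among members with a mean of 100 or more (22.5% of them). It was 8 of 24 at 100 to 300 fragments (33.3%, background 13.6%). At 300 to 1000 it was 1 of 12 (8.33%, background 13.0%), and at 1000 or more 0 of 4 (background 9.32%). From 300 fragments up the share was thus not above background, though on few members. The median ratio there was -0.60 against -0.27 at 300 to 1000, and -0.25 against -0.27 at 1000 or more.

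After 1 h of cold the median ratio was -0.24, with 44 members 2-fold or more lower (background 16.5%) and 14 higher (background 10.2%). After 24 h it was 0.63, against -0.22 over the screened unigenes, and 105 of 150 were above 0. At that time 58 of 150 members were 2-fold or more higher in 93-114 than in Reken501 (background 8.7%). Another 18 of 150 were 2-fold or more lower, a smaller share than the background of 15.8%. The change from the control ratio to the 24 h ratio is the difference between the clones' responses and is fixed by the rule. Scaled to library totals only, 35 members were 2-fold or more higher in 93-114 at 24 h, against 5.16% of the screened unigenes.

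By their ratios at both times the members fell into a few classes, which the rule partly sets. In 53 (35.3%) the clones were within 2-fold in control leaves and 93-114 was 2-fold or more higher after 24 h, as in 2.66% of the screened unigenes. In 42 (28%) the level in 93-114 began 2-fold or more lower and ended within 2-fold of Reken501, as in 4.50% of the screened unigenes. In 32 (21.3%) the clones were within 2-fold at both times, against 68.2%. The 18 members (12%) that were lower in 93-114 at both times were near the background of 8.87%. Another 4 (2.67%) were higher at both times, against 6.03%, and 1 went from lower to higher.

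The extremes show how far apart the starting points were. Rank 92 (1847 bases, a contig) had 134, 165 and 148 fragments in Reken501 and 8, 6 and 15 in 93-114, a ratio of -4.10 (-5.42 to -3.16) in control leaves and -2.88 (-3.80 to -2.15) at 24 h. Rank 117 (1131 bases, standing alone) had 35, 25 and 28 fragments in Reken501 and 170, 187 and 294 in 93-114, a ratio of 2.15 (1.63 to 2.73) in control leaves and 3.75 (3.21 to 4.39) at 24 h. Their 24 h values in 93-114, 1.41 and 1.33, were close to each other. Whether reads of one clone match a given assembled sequence less well than those of the other was not tested.

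**Figure D4:**
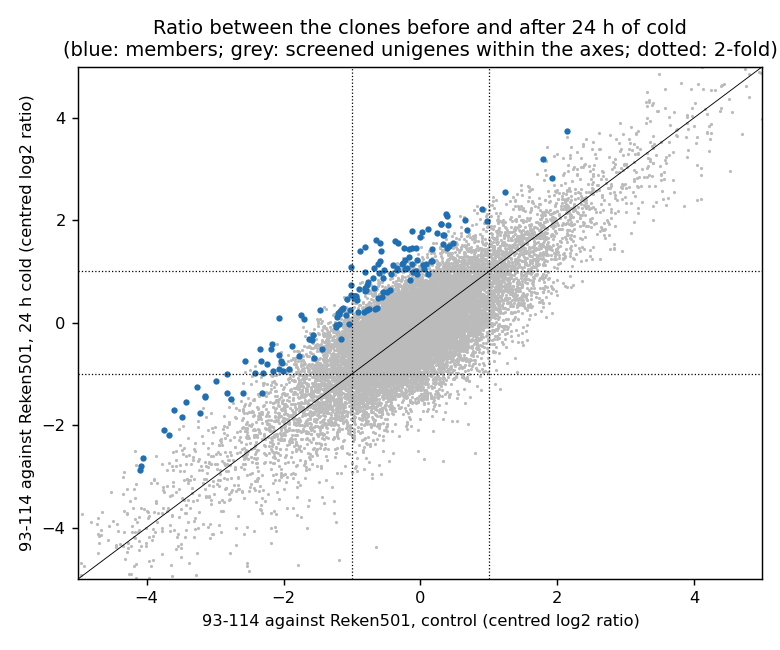
Centred log2 ratio of 93-114 to Reken501 in control leaves (x axis) and after 24 h of cold (y axis). Blue points are the 150 members, grey points the screened unigenes that lie within the axes, dotted lines mark 2-fold and the diagonal marks an unchanged ratio; the members run along the upper edge of the grey cloud, from a ratio of -4.10 to 2.15 in control leaves.

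Set against single libraries, the 24 h library of 93-114 was above all 3 libraries of Reken501 in 96 members, where 27.6% of the screened unigenes showed that order. The control of 93-114 was below all 3 libraries of Reken501 in 112 members (48.9% of the screened unigenes). Both orders were shown by 58 members, a count for which no background is given here. In 33 of the 150 members every 93-114 library was below every Reken501 library, a smaller share than the 33.2% of the screened unigenes. In 13 of the 150 every 93-114 library was above, also a smaller share than the 16.9% of the screened unigenes. The highest of the 6 libraries was the 24 h library of 93-114 in 96 members (64%), against 12.5% of the screened unigenes. In the other 54 a Reken501 library was the highest, the control in 12 (8%, background 17.1%), the 1 h library in 22 (14.7%, background 29.1%) and the 24 h library in 20 (13.3%, close to the background of 11.4%). The lowest was the control of 93-114 in 99 (66%, background 21.4%). Both of these 93-114 libraries were used in the choice.

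The restriction to 93-114 can be read against the unigenes that the rule passed over. Among the unigenes that met the abundance and 1 h limits, 1383 were 2-fold or more higher at 24 h in 93-114. Of these, 461 (33.3%) were 2-fold or more higher in Reken501 as well, 271 were at 0.5 to 1 there, and 541 (39.1%) lay within 0.5. Another 83 were between -1 and -0.5, and 27 were 2-fold or more lower in Reken501. Members are thus the top of a group that grades into unigenes shared by both clones. Among the 461, the 24 h value in 93-114 reached 5.58, and 77 were above the 2.58 of the highest member.

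The same rule with the clones exchanged gave a set of like make-up. Of 19656 unigenes screened that way, 579 were 2-fold or more higher at 24 h in Reken501, against the 541 in 93-114, and 28 were past 4-fold, against 5. The 150 highest had a median of 1.68, with 3.34 as the highest and 1.46 as the last value. In 79 of them the control of Reken501 was 2-fold or more lower than that of 93-114, where 10.4% of the unigenes screened were, and the median ratio of 93-114 to Reken501 was 1.08 in control leaves and -0.47 at 24 h. At 1 h, 92 of the 150 lay at 0.5 to 1 in Reken501, against the 93 in 93-114. A low control in the clone that chose the set, and a value of 0.5 to 1 at 1 h, were therefore found in both directions and are not particular to 93-114. Both sets use the same 6 libraries.

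The members were less abundant and shorter than the unigenes they were screened from. Their mean fragment number had a median of 59.7, against 102.8, and their length had a median of 928 bases (160 to 5750), against 1391. Of the 150, 110 had a mean of 30 to 100 fragments, 24 of 100 to 300, 12 of 300 to 1000 and 4 of 1000 or more. They made up 1.07% of the screened unigenes with 30 to 100 and 0.373% of those with 100 to 300. The 24 h differences of the screened unigenes in 93-114 were also more spread at low counts, with an SD of 0.64 at 30 to 100 fragments and 0.51 at 100 to 300. Within the class of 30 to 100 fragments the members were still the shorter, with a median of 815.5 bases against 1106. In the set chosen on Reken501 the median length was 1227.5 bases.

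Contigs of clusters made up 78 of the 150 members (52%, against 65.8% of the screened unigenes), and 72 stood alone. The 78 lay in 74 clusters. In 71 of these a single contig was a member, in 2 clusters 2 were, and in 1 cluster 3 were. Members that share a cluster share sequence and may share fragments, so they are not separate observations.

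The cluster with 3 members has 15 contigs. Its members, of rank 110, 134 and 138, had 193, 164 and 340 fragments, 79, 57 and 135, and 154, 158 and 262 in 93-114. In Reken501 they had 191, 194 and 224, then 164, 193 and 220, then 225, 238 and 284. The other 12 contigs of the cluster differed by -0.15 to 0.94 at 24 h in 93-114, none of them 2-fold. In Reken501 those 12 differed by 0.09 to 1.38, and 2 of them were 2-fold or more higher. The 3 members themselves were at 0.27, 0.46 and 0.38 in Reken501 and at 1.35, 1.31 and 1.30 in 93-114.

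The other contigs of the members' clusters, called partners here, were not selected by the rule. Of 377 partners, 299 in 68 clusters had a mean of 10 or more fragments. At 24 h in 93-114 their median was 0.45, with 79 (26.4%) 2-fold or more higher and 17 lower, against 12.1% and 14.2% of all other contigs of clusters. In Reken501 their median was 0.19, and 32 were 2-fold or more higher (background 11.2%). The excess in 93-114 depended on the scaling. Scaled to library totals, 11 partners (3.68%) were 2-fold or more higher, against 4.99% of all other contigs, and with totals that leave out the 100 most-read unigenes 21 (7.02%) were, against 7.52%. Of the 79, 29 lay within 0.5 in Reken501 as the members do, and 13 were 2-fold or more higher in both clones.

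A single cluster of 95 contigs decided the partners' count. It held 87 of the 299 partners, 43 of them 2-fold or more higher in 93-114, with a median of 1.00 in 93-114 and 0.49 in Reken501. Without it, 36 of 212 partners (17.0%) were 2-fold or more higher and 15 lower, and the medians were 0.18 in 93-114 and 0.04 in Reken501. The member in that cluster, of rank 32, is the longest of all at 5750 bases and had 18, 34 and 22 fragments in Reken501 and 31, 34 and 69 in 93-114. In this cluster 8 partners had the same count in all 6 libraries as another partner, so its contigs are not separate observations.

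Partners could also go the other way. CL1583.Contig4_All (1438 bases) had 40, 37 and 43 fragments in Reken501 and 86, 15 and 16 in 93-114, and CL1583.Contig11_All (801 bases) had 35, 31 and 47 in Reken501 and 104, 28 and 25 in 93-114. In both the control of 93-114 was the highest library, and their 24 h differences in 93-114 were -1.85 and -1.50, the lowest among partners with a mean of 30 or more fragments. The member of their cluster, of rank 60 (2994 bases), had 202, 177 and 271 fragments in Reken501 and 130, 113 and 251 in 93-114. It was at 1.49 in 93-114 at 24 h, while the sum over the 16 contigs of the cluster, of which it held 14.8% of the fragments, was at -0.47.

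The fragments of all contigs were summed for each of the 74 clusters. If fragments were divided between contigs the sum puts them together again, and if they were counted on several contigs it holds them several times, which was not tested. The median 24 h difference of these sums in 93-114 was 0.72, 25 were 2-fold or more higher and 10 were below 0. In 20 the sum was 2-fold or more higher in 93-114 and within 0.5 in Reken501, against a background of 3.47% of cluster sums. Scaled to library totals the count was 2 (background 0.820%), and with totals that leave out the 100 most-read unigenes it was 10 (background 1.45%). The sums contain the members and so are not independent of the rule. Where the members held 50% or more of the fragments of the cluster, 22 of 29 sums were 2-fold or more higher, and where they held less, 3 of 45 were. A sum made mostly of a chosen contig is high in part by construction, and no background for these counts is given here. In 49 of the 74 clusters, then, the higher value of the contig was not matched by a 2-fold higher sum.

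**Figure D5:**
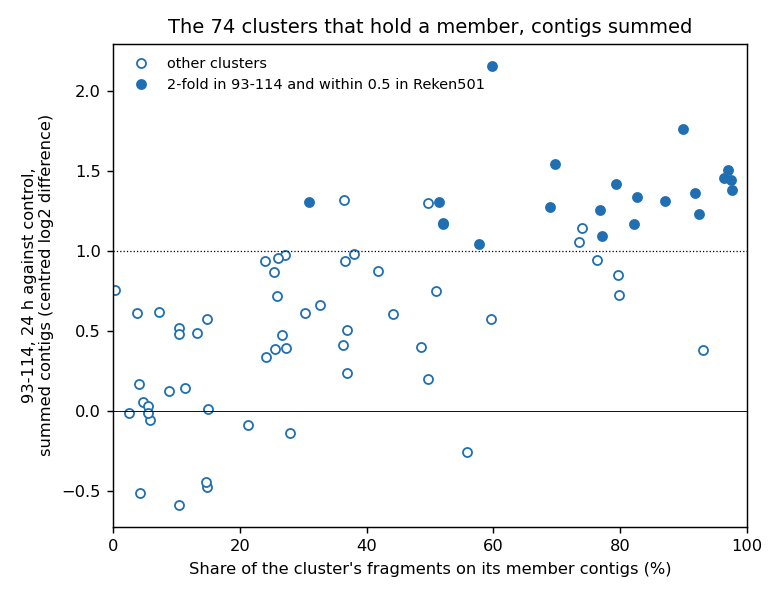
Centred log2 difference of 24 h cold against control in 93-114 for the summed fragments of each of the 74 clusters with a member (y axis), by the share of the cluster's fragments that lies on its member contigs (x axis, percent). Filled points are the 20 clusters that were 2-fold or more higher in 93-114 and within 0.5 in Reken501, the dotted line marks 2-fold; most of the filled points lie at shares of 50% or more.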

How the data were processed

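Leaf RNA was sequenced from 6 pools, 1 for each clone and time. The authors deposited 4 tables that compare pairs of libraries, with the count of raw fragments, the FPKM and the length of each unigene, and the total fragments of each library. The FPKM that the authors deposited equals the count divided by length and by that total. The assembler, aligner, counter and versions behind the unigene tables are not given in the sources used here. Deposited columns with log2 ratios, p-values and false discovery rates of the authors' own comparisons were not used.

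The 4 tables were joined, with a unigene absent from a table taken as 0 fragments. The value used was the log2 of fragments plus 0.5 over the library total, less the median of the library over the 90162 unigenes with a mean of 10 or more fragments. Screening limits are given with the results. The members and lists were chosen with earlier results of these data known. With 1 library per condition a 2-fold difference was the call, and ratios carry exact conditional 95% binomial intervals (those of a difference between clone responses are Wald intervals on the log scale). Such intervals cover counting error only. PCR copies are not separate molecules, so even the counting error may be larger than they show. Depths of 20.4 M to 21.9 M fragments limit the precision of members with few fragments. The identifiers printed are the 2 members with the highest 24 h difference and the 2 partner contigs, with a mean of 30 or more fragments, with the lowest. Alternatives were other scalings (totals, totals without the 100 most-read unigenes, edgeR 4.0.16 TMM, DESeq2 1.42.0 size factors), added fragments, minimum counts, windows, summed clusters and a 4-fold call. Python 3.11.15, numpy 2.4.6, pandas 2.3.3, scipy 1.17.1, matplotlib 3.10.9 and R 4.3.3 were used. The choice of members was tested on simulated data. Those data held counting error only, with no spread between pools and no difference between the clones in control leaves. Only unigenes with a mean well above the minimum of 30 fragments were raised in them. The test therefore does not cover the spread between pools or the members with few fragments.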

Additional observations from a re-analysis of the deposited data

Results flagged for a closer look

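The median log2 ratio of 93-114 to Reken501 over the 150 members was -0.79 in control leaves and 0.63 after 24 h of cold, so it had opposite signs before and after cold. With 1 library per condition the difference between these values was not tested, and the size of the change is fixed by the way the members were chosen.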

How the results depend on the processing

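Of 85 alternative values, 53 moved little, 32 moved and 0 changed sign, and the cause was not tested. Only the median ratios between the clones could be called a change of sign. The other values, which are counts, shares and the smallest 24 h value, could not. For counts, moving little was a loose call. With 5 fragments added, 103 of the 150 members stayed among the 150 highest, and this was called moving little. Scaled to library totals, 39 of the 150 members stayed among the 150 highest, the smallest 24 h value was 0.94, 35 members were 2-fold higher in 93-114 after 24 h, the median ratio at 24 h was 0.23, 2 cluster sums met both limits and 11 partners were 2-fold higher. With totals that leave out the 100 most-read unigenes these were 65 members, 10 sums and 21 partners. The members outside those 100 took 0.244%, 0.274% and 0.279% of the remaining fragments in Reken501, and 0.208%, 0.246% and 0.454% in 93-114. These scalings to totals shifted every difference between 24 h and control in 93-114 by -0.65 and -0.33 from its centred value. TMM shifted it by -0.01 and DESeq2 size factors by 0.05, and they kept 142 and 145 members. A mean of 100 or more fragments kept 40 members, a Reken501 window of 0.25 kept 79 and of 1 kept 65 (fewer or more unigenes screened), and summing clusters kept 89. Of the 118 members with 20 or more fragments in both controls, 35 were 2-fold lower and 2 higher in control leaves. At 4-fold, 33 of the 150 members were lower and 1 higher in control leaves, 8 were higher at 24 h and 1 cluster sum was higher. For the counts at 20 or more fragments and at 4-fold no background is given here, so nothing about the members is read from them. Chosen after seeing the data, leaving out the cluster of 95 contigs gave 36 partners, and leaving out the most-read member gave shares of 0.169%, 0.181%, 0.181%, 0.145%, 0.136% and 0.253%, in library order. No paired analysis was possible because there is 1 library per condition. Depth limits the members with few fragments, 28 of which had 5 to 19 in the control of 93-114.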

Other observations

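The screened unigenes also held a counterpart that was lower in 93-114. At 24 h, 1175 were 2-fold or more lower than in the control of 93-114, against the 541 that were higher, and 62 were past 4-fold, against 5, with -4.42 as the lowest value. The 150 lowest had a median of -1.91 at 24 h and of -0.54 at 1 h. Their ratio of 93-114 to Reken501 had a median of -0.21 in control leaves and -1.98 at 24 h. At 24 h 120 of them were 2-fold or more lower in 93-114 (background 15.8%), which choosing the lowest values favours by construction. In control leaves 18 of the 150 were 2-fold or more higher in 93-114, against 8.89% of the screened unigenes. Their median length was 937 bases, close to the 928 of the members, and their mean fragment number had a median of 44.6.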
